A study of Homo sapiens with 16 samples.

Results

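The genes described here are 10 human cell cycle genes: the cyclins CCND3 and CCNE1, the phosphatases CDC25A and CDC25C, the inhibitor CDKN1A, the transcription factor E2F1, and the helicase subunits MCM2, MCM3, MCM5 and MCM7. They are 10 of the 20037 protein-coding genes of the RefSeq table (GRCh38.p14) on chromosomes 1 to 22, X and Y. For each of them, chromatin immunoprecipitation sequencing (ChIP-seq) peaks of HDGF and INTS13 were collected over the gene body and within 2.5 kb of either end. The genes were chosen with the peaks at them already known, so the numbers of genes with a peak are a description and carry no test.

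The cells were HEK293T, an established human embryonic kidney line, labelled wild type in every group. HDGF binds chromatin through its PWWP domain, and INTS13 is a subunit of Integrator, a complex that cleaves nascent RNA. HDGF was immunoprecipitated from cells kept for 24 h in medium without glucose (starvation) and from cells given a control depletion. INTS13 was immunoprecipitated from cells in which HDGF was depleted for 72 h with a pool of small interfering RNAs, from cells starved in the same way, and from cells given the control depletion. The question was whether starvation or loss of HDGF goes with a changed position of INTS13 on the genome. The labels mention a control depletion for the control cells and not for the starved cells. The INTS13 antibody came from Proteintech in starvation and from Bethyl in HDGF depletion and control, so antibody and starvation cannot be told apart for INTS13. The HDGF antibody came from Proteintech in both HDGF groups. Each group had 2 labelled replicates and 1 deposited peak list, so no value has a replicate error and no test between conditions was possible. Results of the depletion are those of a knockdown, and the remaining amount of HDGF protein was not analysed here.

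Progress through the cell cycle is driven by cyclin-dependent kinases, which are switched on by cyclins and by CDC25 phosphatases and held back by inhibitors such as CDKN1A. The kinases of G1 release E2F factors from the retinoblastoma protein, and E2F factors turn on genes for DNA replication, among them CCNE1, CDC25A and the MCM genes. The MCM proteins form the ring-shaped helicase that is loaded at replication origins in G1 and unwinds DNA in S phase. CDC25C acts later, at entry into mitosis, and its promoter is a textbook case of control by a cell cycle homology region (CHR).

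The results turn on the starts of a few of these genes. The sequences below are shown for their INTS13 peaks. INTS13 lay on the start of CCNE1 and CDC25A in the starvation list alone, and at CDC25C on a start in every INTS13 list. MCM2 and E2F1 are E2F targets with no INTS13 peak on the start in any list. CDC25C has separate listed starts of which INTS13 marked the upstream one. Each runs 5′ to 3′ on the strand of the gene from 250 bases before the start to 30 bases after it, from RefSeq sequence of GRCh38.p14. Capitals mark matches, on either strand, to the E2F motif (TTTCGCGC, TTTGGCGC, TTTCCCGC or TTTGCCGC) or to the CHR motif (TTTGAA or TTCGAA). The coordinates are chr19:29811741-29812020 (plus strand) for CCNE1, chr3:48188388-48188667 (minus) for CDC25A, chr5:138338326-138338605 (minus) for the upstream start of CDC25C, chr5:138331775-138332054 (minus) for its downstream start, chr3:127598161-127598440 (plus) for MCM2 and chr20:33686356-33686635 (minus) for E2F1.
CCNE1: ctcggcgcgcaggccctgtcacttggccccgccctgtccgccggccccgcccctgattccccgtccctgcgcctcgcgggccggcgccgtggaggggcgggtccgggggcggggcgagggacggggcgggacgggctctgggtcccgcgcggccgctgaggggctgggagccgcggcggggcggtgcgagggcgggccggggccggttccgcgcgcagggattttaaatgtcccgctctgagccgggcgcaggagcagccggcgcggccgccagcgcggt
CDC25A: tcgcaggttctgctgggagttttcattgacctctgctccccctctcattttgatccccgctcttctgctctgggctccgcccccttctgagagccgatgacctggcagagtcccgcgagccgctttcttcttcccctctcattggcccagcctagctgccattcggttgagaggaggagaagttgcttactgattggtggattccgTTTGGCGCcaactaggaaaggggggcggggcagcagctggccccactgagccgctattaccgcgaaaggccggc
CDC25C upstream start: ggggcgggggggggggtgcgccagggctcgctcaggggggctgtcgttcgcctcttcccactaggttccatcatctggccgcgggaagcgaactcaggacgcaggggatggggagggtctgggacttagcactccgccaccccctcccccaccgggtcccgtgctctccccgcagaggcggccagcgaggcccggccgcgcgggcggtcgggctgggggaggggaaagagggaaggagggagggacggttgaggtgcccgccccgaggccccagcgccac
CDC25C downstream start: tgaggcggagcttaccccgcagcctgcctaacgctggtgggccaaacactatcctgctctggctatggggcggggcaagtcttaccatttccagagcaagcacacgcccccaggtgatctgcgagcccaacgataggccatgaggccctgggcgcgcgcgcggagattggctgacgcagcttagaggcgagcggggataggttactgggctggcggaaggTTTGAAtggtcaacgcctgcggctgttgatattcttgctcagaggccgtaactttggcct
MCM2: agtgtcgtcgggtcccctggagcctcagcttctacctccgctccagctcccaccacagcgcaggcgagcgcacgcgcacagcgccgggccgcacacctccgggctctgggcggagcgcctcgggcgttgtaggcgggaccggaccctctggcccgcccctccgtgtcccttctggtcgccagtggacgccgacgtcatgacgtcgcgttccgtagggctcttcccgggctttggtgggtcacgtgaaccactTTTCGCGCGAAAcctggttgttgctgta
E2F1: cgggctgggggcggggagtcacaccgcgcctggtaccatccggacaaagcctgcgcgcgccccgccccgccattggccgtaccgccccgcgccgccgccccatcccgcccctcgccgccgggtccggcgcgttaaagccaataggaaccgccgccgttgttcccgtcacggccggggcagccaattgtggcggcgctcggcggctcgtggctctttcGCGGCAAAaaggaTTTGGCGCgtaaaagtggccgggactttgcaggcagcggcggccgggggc

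The E2F motif was present in 3.9% of the 22183 listed promoters of the same length. CDC25A had 1 match, 44 bases before its start. E2F1, MCM2, MCM3 and the outermost start of MCM7 had 2 matches each, and those of MCM2 overlapped each other just after the start. CCNE1, CDC25C, CCND3 and CDKN1A had no match to these letters in this window. The CHR motif was present in 13.2% of listed promoters. Among the listed starts of the 10 genes it was found at the downstream start of CDC25C, 30 bases before it. The CCNE1 window was 81.4% G or C and the upstream CDC25C window 74.6%, against 60.4% for CDC25A and a median of 62.1% over all listed promoters. At genes with 1 listed start and no INTS13 peak over its window, it was 74.6% (CDKN1A), 73.2% (E2F1), 68.6% (MCM2) and 57.1% (MCM3). MCM5 had no start used here, and distances at this gene are given from its ends. A match to a motif describes the letters and not a binding site.

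The deposited lists held 68138 peaks for HDGF in starvation, 106674 for HDGF in control, 105994 for INTS13 after HDGF depletion, 15639 for INTS13 in starvation and 31233 for INTS13 in control. The lists differ in depth as far as the peaks show it. The background at a position, recovered from the authors' fold and p-value of each peak, was 9.84, 6.69, 4.2, 15.2 and 6.4 reads in the same order, before the scaling of both starvation lists. The fold of a peak is the authors' enrichment of the summit over background, and −log10 q is its significance after correction for many peaks. Folds of the 5 lists rest on different backgrounds and are therefore ranked only within a list. Peaks with −log10 q of at least 10 were few in every list, at 548, 683, 495, 420 and 749.

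HDGF peaks were found at 9 of the 10 genes in starvation, where 41.1% of all protein-coding genes had one, and at 10 of 10 in control, where 49.7% did. INTS13 peaks were found at 9 of 10 after HDGF depletion (51.2% of all genes), at 5 of 10 in starvation (11.6%) and at 4 of 10 in control (13.2%). Among the 12109 protein-coding genes within the span of the 10, from the shortest to the longest, the shares were 43.2% and 54.7% for HDGF in starvation and control, and 55.6%, 12.7% and 14.0% for INTS13 in HDGF depletion, starvation and control. The 10 genes together held 66 HDGF peaks in starvation and 98 in control, and 54, 6 and 8 INTS13 peaks in HDGF depletion, starvation and control. MCM5 held 38 and 29 of these HDGF peaks and 25, 2 and 4 of these INTS13 peaks. Without MCM5 the totals were 28 and 69 for HDGF, and 29, 4 and 4 for INTS13.

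**Figure D1:**
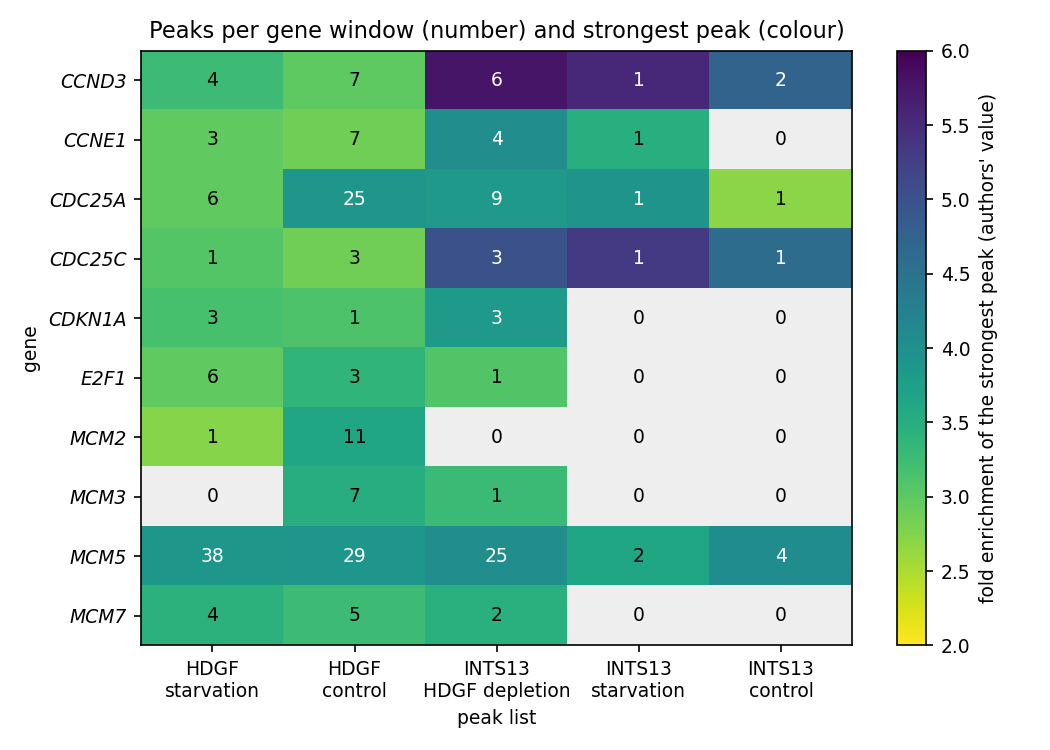
Number of peaks over each gene body and within 2.5 kb of either end, by gene and peak list, with 1 deposited list per group and no replicate error. MCM5 holds the most peaks in all 5 lists, and CDKN1A, E2F1, MCM2, MCM3 and MCM7 hold no INTS13 peak in the starvation and control lists.

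The peaks at these genes were mostly weak ones. HDGF folds ran from 2.36 to 3.88 in starvation and from 2.34 to 3.9 in control, where the medians of the whole lists were 2.9 and 2.86 and the lowest folds 2.27 and 2.21. INTS13 folds ran from 2.69 to 5.77 in HDGF depletion, from 2.78 to 5.55 in starvation and from 2.7 to 4.73 in control. None of the HDGF peaks reached a −log10 q of 10. Of the INTS13 peaks, 1 did in HDGF depletion, 2 did in starvation and 1 did in control. These 4 peaks lay beside CCND3 in all 3 lists and on the start of CDC25C in starvation.

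The cyclins gate the passage through G1. CCND3 (chr6:41934933-42050035, minus strand) encodes a D-type cyclin, a partner of CDK4 and CDK6 in early G1. It held 4 HDGF peaks in starvation against 7 in control, with top folds of 3.25 and 2.99. INTS13 had 6 peaks in HDGF depletion, 1 in starvation and 2 in control. The strongest of each list had folds of 5.77, 5.55 and 4.73 and −log10 q values of 10.9, 16.2 and 10.2, and these were the strongest INTS13 peaks found at any of the 10 genes. They did not lie on a listed start of CCND3. Their summits were 506, 532 and 531 bp outside the gene and 1853, 1878 or 1879 bp upstream of the nearest listed start. In starvation and control the summit lay 43 and 42 bp from the nearer boundary of the neighbouring gene TAF8. That gene encodes a subunit of the general transcription factor TFIID, and whether the boundary is its start was not determined. The strongest INTS13 signal assigned to CCND3 is thus nearer to TAF8, and the other INTS13 peak in control, of fold 3.11, lay in the gene body.

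CCNE1 (chr19:29811991-29824312, plus strand) encodes an E-type cyclin, the partner of CDK2 at the start of S phase. It held 3 HDGF peaks in starvation and 7 in control. Its INTS13 peaks numbered 4 in HDGF depletion, 1 in starvation and 0 in control. The single starvation peak (chr19:29811944-29812163) covered the start printed above, with its summit 72 bp downstream, a fold of 3.47 and a −log10 q of 5.04. The depletion peaks lay elsewhere, 1535 bp upstream of the start and 3621, 7962 and 10569 bp into the gene. HDGF flanked the start and did not lie on it, with summits 1083 bp upstream and 882 bp downstream in starvation and 1268 bp upstream in control.

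The CDC25 phosphatases remove inhibitory phosphates from cyclin-dependent kinases. CDC25A (chr3:48157146-48188417, minus strand) acts at entry into S phase and is degraded when DNA is damaged. It held 6 HDGF peaks in starvation against 25 in control, covering 6.3% and 32.3% of the window. Of the 6 starvation peaks, 5 shared at least 1 base with a control peak, by 19 to 461 bases. INTS13 had 9 peaks in HDGF depletion, 1 in starvation and 1 in control. The starvation peak (chr3:48188144-48188532) lay on the start, with its summit 48 bp downstream, a fold of 3.93 and a −log10 q of 7.27. The control peak lay 15834 bp into the gene, with a fold of 2.7 and a −log10 q of 2.1. CDC25A therefore counts as holding INTS13 in both lists although the places differ. HDGF summits again stood on both sides of the start, 769 bp upstream and 855 bp downstream in starvation, and 739 bp upstream and 1468 bp downstream in control.

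CDC25C (chr5:138285265-138338355, minus strand) activates CDK1 at entry into mitosis. It held 1 HDGF peak in starvation and 3 in control, and 3, 1 and 1 INTS13 peaks in HDGF depletion, starvation and control. INTS13 lay on the upstream start in all 3 lists, with summits 95, 85 and 21 bp downstream of it and folds of 5.0, 5.32 and 4.59. Another start is listed there, 81, 71 and 7 bp from these summits. The −log10 q values were 7.81, 14.7 and 9.5. The peaks in starvation (chr5:138338099-138338440) and control (chr5:138338163-138338454) overlapped each other. The neighbouring gene FAM53C starts on the opposite strand 89 bp inside this end of CDC25C. The INTS13 summits in HDGF depletion, starvation and control lay 6, 4 and 68 bp from its listed start, so the peaks cannot be given to either gene alone. The downstream start of CDC25C, with the CHR match, had no INTS13 peak within 500 bp in starvation and control, and the nearest summit in HDGF depletion was 478 bp upstream of a listed start there, with a fold of 3.08. Among the 10 genes, CDC25C was the gene with a listed start where INTS13 was found on that start in every INTS13 list.

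CDKN1A (chr6:36676463-36687332, plus strand) encodes p21, the inhibitor of cyclin-dependent kinases that p53 induces. It held 3 HDGF peaks in starvation and 1 in control, with a fold of 3.16 for each starvation peak and of 3.12 for the control peak. The starvation summits lay 2136 and 1467 bp upstream and 5634 bp downstream of the listed start, and the control summit 8026 bp downstream of it. This listed start lies 2251 bp inside the gene, and the first of the starvation summits lay 115 bp inside the low-coordinate end of CDKN1A. None of the starvation peaks overlapped the control peak. INTS13 had 3 peaks in HDGF depletion, of folds 2.89 to 3.85, and 0 in starvation and in control. All 3 lay in the gene body, 2286 bp or more beyond the listed start.

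E2F1 (chr20:33675477-33686385, minus strand) encodes the transcription factor that gives the E2F family its name. It held 6 HDGF peaks in starvation and 3 in control. The nearest to the start lay 1142 bp downstream in starvation, with a fold of 2.98, and 744 bp upstream in control, with a fold of 3.38. INTS13 had 1 peak in HDGF depletion, 1161 bp downstream of the start, of fold 3.08, and 0 in starvation and in control. CDKN1A and E2F1 were the genes with more HDGF peaks in starvation than in control beside MCM5, by small counts.

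The MCM subunits build the replicative helicase, and the 4 of them held 0 to 38 HDGF peaks in starvation and 5 to 29 in control. MCM2 (chr3:127598411-127622436, plus strand) held 1 HDGF peak in starvation, of fold 2.72, against 11 in control, of folds up to 3.64. The control peaks ran along the gene, the first of them 853 bp downstream of the start, and covered 16.4% of the window, against 1.37% in starvation. MCM2 was the gene with no INTS13 peak in any of the 3 lists. MCM3 (chr6:52264015-52284742, minus strand) held 0 HDGF peaks in starvation and 7 in control, of folds up to 3.51, and was the 1 gene of the 10 with HDGF in control alone. Its nearest control summit lay 1298 bp downstream of the start. INTS13 had 1 peak at MCM3 in HDGF depletion, 15610 bp into the gene and of fold 3.27, and 0 in starvation and in control.

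MCM5 (chr22:35400140-35455031) held 38 HDGF peaks in starvation against 29 in control, covering 32.1% and 29.0% of the window, with top folds of 3.88 and 3.9. INTS13 had 25, 2 and 4 peaks in HDGF depletion, starvation and control. An INTS13 peak lay just outside the low-coordinate end of MCM5 in all 3 lists, with summits 325, 255 and 317 bp outside the gene and folds of 3.85, 3.65 and 4.05, and these peaks overlapped each other. The table gives no strand for MCM5, so this end is not called its start. Chromosome 22 is dense in peaks: it held 7.77% and 5.25% of the HDGF peaks in starvation and control, and 5.6%, 7.08% and 3.22% of the INTS13 peaks in HDGF depletion, starvation and control, while carrying 2.25% of the protein-coding genes. The part of this density in the counts at MCM5 was not tested.

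MCM7 (chr7:100092728-100101397, minus strand) held 4 HDGF peaks in starvation and 5 in control, with top folds of 3.43 and 3.25. INTS13 had 2 peaks in HDGF depletion, of folds 3.27 and 3.46, and 0 in starvation and in control. Another INTS13 peak stood outside the 2.5 kb window, 3791, 3734 and 3728 bp beyond the gene in HDGF depletion, starvation and control, with folds of 3.08, 4.51 and 3.65. Its summit lay 25 bp in starvation and 31 bp in control from the nearer boundary of the neighbouring gene COPS6. That gene encodes a subunit of the COP9 signalosome, and whether the boundary is its start was not determined. The peak was not counted for MCM7, as it lay outside the window.

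**Figure D2:**
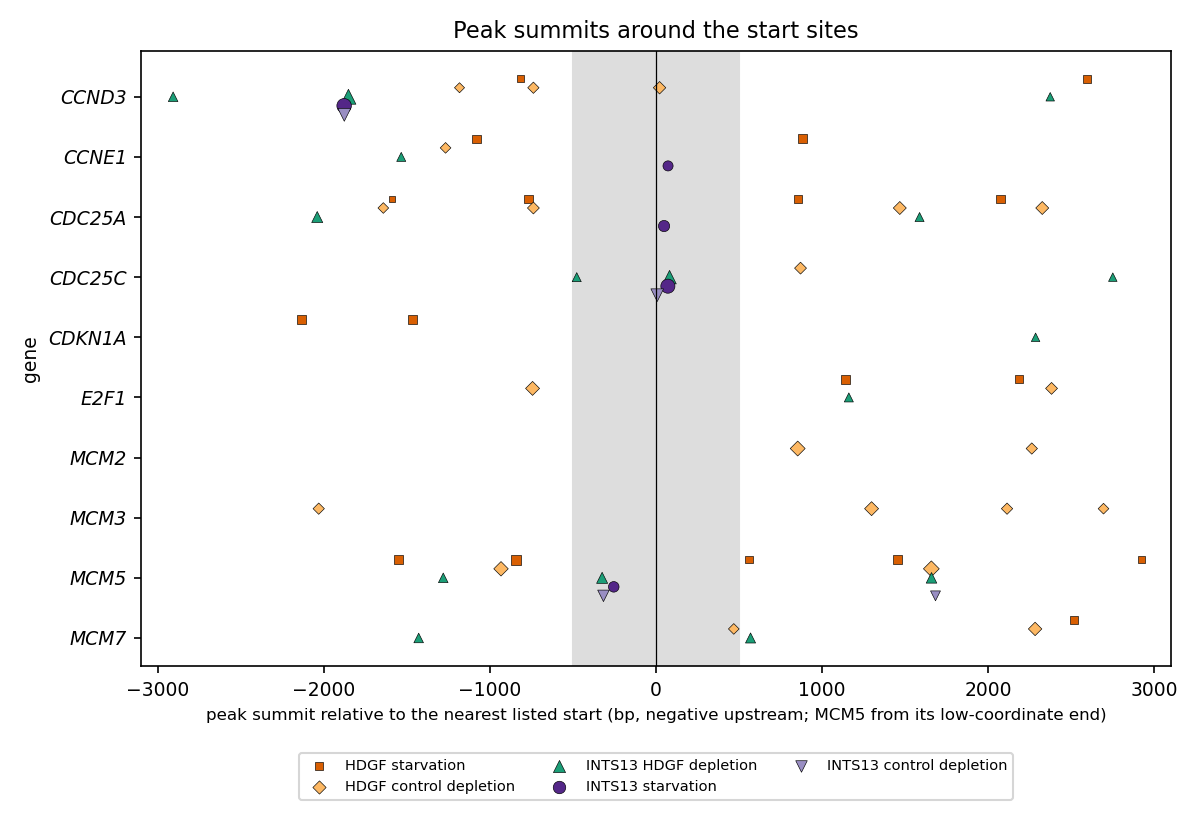
Position of each peak summit relative to the nearest listed start of its gene, in bp with negative values upstream (MCM5 from its low-coordinate end), with 1 symbol per peak, larger for a higher fold, and the grey band within 500 bp. INTS13 starvation summits stand in the band at CCNE1, CDC25A, CDC25C and MCM5, and no HDGF starvation summit does.

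For HDGF in starvation against control, 9 genes had a peak in both lists, where 31.5% of all genes did. None had a peak in starvation alone (9.57% of all genes) and 1, MCM3, had one in control alone (18.2%). Over the 10 genes, 35 of the 66 starvation peaks (53.0%) overlapped a control peak, and 31 of the 98 control peaks (31.6%) overlapped a starvation peak. MCM5 alone supplied 23 of these 35 and 19 of these 31, so the pooled shares are mostly those of 1 gene. Over the whole lists these shares were 34.9% and 21.0%. The lists also differed in the number of peaks at a gene. Among the 2162 genes with at least 10 HDGF peaks in control, the median ratio of starvation to control peaks was 0.25. MCM2, at 0.0909, had 30.3% of these genes at or below it, CDC25A, at 0.24, had 49.4%, and MCM5, at 1.31, had 93.7%. The ratios of MCM2 and CDC25A thus stood at or below the middle of genes rich in HDGF peaks, and that of MCM5 in the upper part.

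Among the 4199 genes with at least 5 control peaks the median was 0.25 as well. The ratio was 0.0 at MCM3, with 24.3% of genes at or below it, 0.429 at CCNE1 (61.3%), 0.571 at CCND3 (68.1%) and 0.8 at MCM7 (77.5%). These genes were selected on the control list, which favours low ratios, and over the whole genome the list in starvation held 0.639 times as many peaks. The ratio was 0.311 on chromosome 6, which carries CCND3, CDKN1A and MCM3, 0.646 on chromosome 3, which carries CDC25A and MCM2, and 0.946 on chromosome 22, which carries MCM5. On chromosome 19, which carries CCNE1, it was 1.57, above 1, while that of CCNE1 itself was 0.429.

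HDGF peaks were also counted in the 500 kb on each side of each gene. Around MCM2 there were 24 HDGF peaks in starvation against 25 in control, while the gene itself held 1 against 11. Around CDC25A there were 183 against 194, while the gene held 6 against 25. Around MCM3 there were 1 and 2, and around MCM5 86 and 83. Around CDC25C there were 12 in starvation against 67 in control, and the gene held 1 against 3. Around E2F1 there were 19 against 34 and around CDKN1A 27 against 39. These genes themselves held 6 against 3 and 3 against 1. Around CCND3, CCNE1 and MCM7 there were 25 against 24, 52 against 62 and 41 against 27, while the genes held 4 against 7, 3 against 7 and 4 against 5. At MCM2, CDC25A and CCND3 the count of the surroundings was thus close in both lists while that of the gene was lower in starvation. At CDC25C, CCNE1 and MCM3 both were lower, with few peaks around MCM3 in either list. At E2F1 and CDKN1A the surroundings were lower in starvation and the count of the gene was higher.

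**Figure D3:**
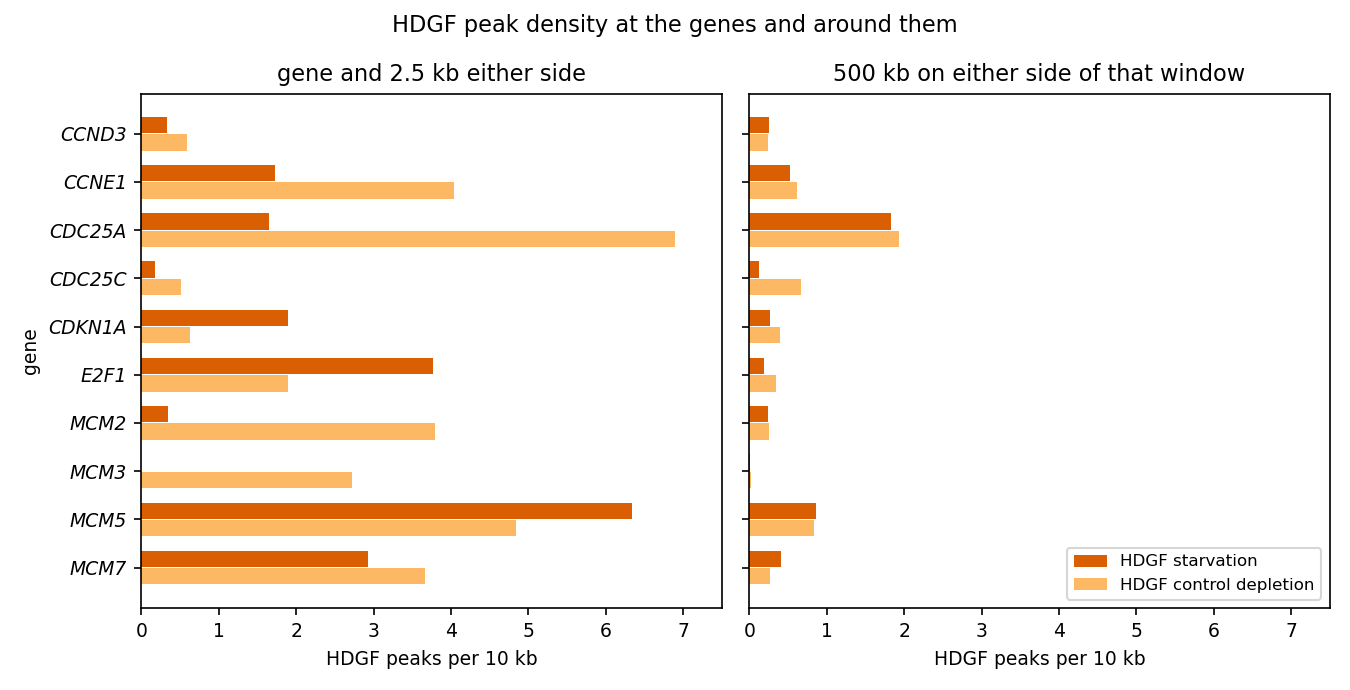
HDGF peak density in starvation and control at each gene and in its surroundings of 500 kb on each side, from 1 deposited list per group. MCM2, CDC25A and CCND3 hold fewer peaks in starvation, at 1 against 11, 6 against 25 and 4 against 7. Their surroundings hold 24 against 25, 183 against 194 and 25 against 24. E2F1 and CDKN1A go the other way, at 6 against 3 and 3 against 1, with 19 against 34 and 27 against 39 around them.

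For INTS13 in HDGF depletion against control, 4 genes had a peak in both lists (12.5% of all genes): CCND3, CDC25A, CDC25C and MCM5. Another 5 had one in HDGF depletion alone (38.7%): CCNE1, CDKN1A, E2F1, MCM3 and MCM7. None had one in control alone (0.704%). The HDGF depletion list was 3.39 times as long as the control list, and of its 54 peaks at the 10 genes 4 (7.41%) overlapped a control peak, while 4 of the 8 control peaks (50.0%) overlapped a depletion peak. Over the whole lists these shares were 14.4% and 50.3%. When the depletion list was shortened to the length of the control list by its strongest peaks, the genes with INTS13 after depletion alone numbered 2, CCNE1 and CDKN1A.

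For INTS13 in starvation against control, the same 4 genes had a peak in both lists (6.92% of all genes), CCNE1 had one in starvation alone (4.73%), and none had one in control alone (6.29%). The starvation list was 0.501 times as long as the control list. Of its 6 peaks at these genes 3 (50.0%) overlapped a control peak, and 3 of the 8 control peaks (37.5%) overlapped a starvation peak, where the whole lists had 40.6% and 22.2%. The shared peaks at these genes were those beside CCND3, on the start of CDC25C and at the low-coordinate end of MCM5. INTS13 in control was set beside HDGF in control as well. Here 4 genes held both (11.5%), none held INTS13 alone (1.7%) and 6 held HDGF alone (38.2%). With lists of equal length INTS13 alone was found at 2 genes, CCND3 and CDC25C, and with −log10 q of at least 3 at 1, CDC25C. At the 10 genes 3 of the 8 INTS13 control peaks (37.5%) overlapped 3 of the 98 HDGF control peaks (3.06%), all of them at MCM5. Over the whole lists 45.0% of INTS13 control peaks overlapped an HDGF control peak, and 10.8% of HDGF control peaks an INTS13 control peak. In starvation 1 of 6 INTS13 peaks at these genes (16.7%) overlapped an HDGF peak, again at MCM5, against 72.0% of INTS13 starvation peaks over the whole list.

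The distance of the summits to the starts differed between the lists. INTS13 summits lay within 500 bp of a start, or of an end of MCM5, for 3 of 54 peaks in HDGF depletion, 4 of 6 in starvation and 2 of 8 in control. HDGF summits did for 0 of 66 peaks in starvation and 2 of 98 in control. Those 2 were 21 bp downstream of an internal start of CCND3 and 468 bp downstream of an internal start of MCM7. The starvation summit 115 bp inside the low-coordinate end of CDKN1A was not counted, as it lay 2136 bp from the listed start. Summit distances were taken to the nearest start, or at MCM5 to its nearer end. Their median was 7164 bp for HDGF in starvation and 10421 bp for HDGF in control. It was 7499 bp for INTS13 in HDGF depletion, 163 bp for INTS13 in starvation and 2964 bp for INTS13 in control. MCM5 supplied 38, 29, 25, 2 and 4 of the peaks in the same order, so its distances to gene ends weigh on these medians. The 4 INTS13 control summits at the other genes lay 7, 1878, 15834 and 29425 bp from a listed start. With MCM5 included, the median of INTS13 in HDGF depletion was close to that of HDGF in starvation. The shortest median was that of the 6 INTS13 peaks in starvation, among them summits 1879 bp (CCND3) and 3014 bp (MCM5) away. INTS13 summits at CDC25C also lay 7 bp from a start in control and 81 bp in HDGF depletion. The distance was measured after the genes had been chosen on their peaks.

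The same measure over the 15842 protein-coding genes with a listed start gives the background for this. A summit lay within 500 bp of a start at 9.23% of these genes for HDGF in starvation, 4.36% for HDGF in control, 9.1% for INTS13 in HDGF depletion, 5.63% for INTS13 in starvation and 3.04% for INTS13 in control. Of the 9 genes described here with a listed start, 0, 2, 1, 3 and 1 did. Of all INTS13 peaks in the windows of genes with a listed start, 13.3% were on a start in starvation and 3.99% in control, and at these 9 genes 3 of 4 and 1 of 4 were. INTS13 marked a start in starvation alone at 3.98% of genes, in both lists at 1.65% and in control alone at 1.38%. CCNE1 and CDC25A belong to the 3.98% and CDC25C to the 1.65%. INTS13 marked a start in HDGF depletion alone at 7.16% of genes, with none of the 9 among them, in both depletion and control at 1.94%, with CDC25C, and in control alone at 1.09%, again with none of the 9. HDGF marked a start in starvation alone at 7.39% of genes and in both lists at 1.84%, with none of the 9 in either, and in control alone at 2.52%, with CCND3 and MCM7. Since the antibody changed with the treatment, the part of either in these start peaks cannot be told apart.

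**Figure D4:**
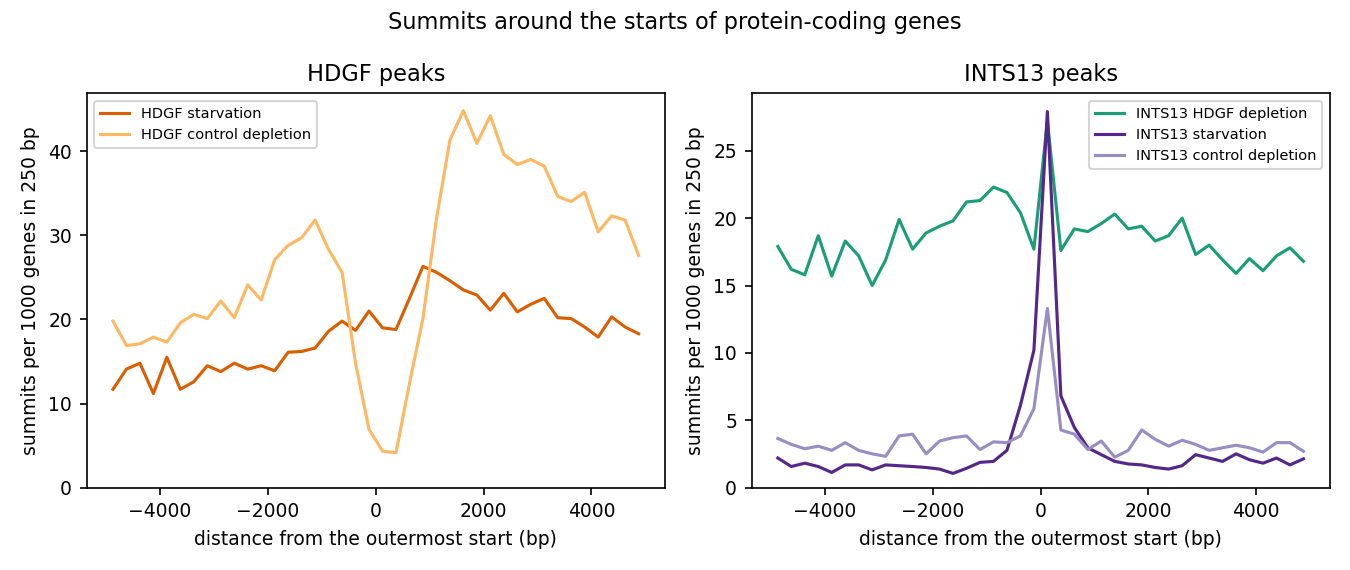
Peak summits per 1000 protein-coding genes in bins of 250 bp, out to 5000 bp on either side of the outermost listed start, for each of the 5 lists. INTS13 in starvation is 10.2 times as dense in the central bins as far from the start and INTS13 in control 3.18 times, while HDGF in control drops to 0.219 times.

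The single genes were set beside the profile around the outermost listed start of each protein-coding gene. Distances at the single genes are to the nearest listed start, which can be an internal one. The density of summits within 250 bp of a start, divided by that far from it, was 1.33 for INTS13 in HDGF depletion, 10.2 for INTS13 in starvation and 3.18 for INTS13 in control. It was 1.21 for HDGF in starvation and 0.219 for HDGF in control, where summits were sparser at starts than away from them. At CDC25A, CDC25C, CCNE1, E2F1, MCM2 and MCM3 the nearest HDGF control summit was 739 to 1298 bp from a listed start. CCND3 and MCM7 differed from them, with control summits 21 and 468 bp from an internal start. CDKN1A differed as well, as its control summit lay 8026 bp beyond the listed start. In starvation HDGF showed no such dip over all genes. At these 10 genes no HDGF starvation summit came nearer than 559 bp to a listed start or an end of MCM5. At CDKN1A the listed start lies 2251 bp inside the gene, and a starvation summit lay 115 bp inside its low-coordinate end.

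In sets of lists, the 10 genes fell into 5 patterns. CCND3, CDC25A, CDC25C and MCM5 held a peak in all 5 lists, as did 1183 protein-coding genes (5.9%). CCNE1 lacked INTS13 in control alone, as did 521 genes (2.6%). CDKN1A, E2F1 and MCM7 held HDGF in both lists and INTS13 in HDGF depletion, as did 2834 genes (14.1%). MCM3 held HDGF in control and INTS13 in HDGF depletion, as did 1801 genes (8.99%), and MCM2 held HDGF in both lists alone, as did 854 genes (4.26%).

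A wider list of 72 other cell cycle genes, taken by role, put these values in context. HDGF was found at 31 of the 72 in starvation (43.1%, exact 95% interval 31.4 to 55.3%) and at 59 in control (81.9%, 71.1 to 90.0%), where 41.1% and 49.7% of all genes had a peak. INTS13 was found at 35 in HDGF depletion (48.6%), 7 in starvation (9.72%) and 4 in control (5.56%), where 51.2%, 11.6% and 13.2% of all genes had a peak. The intervals cover counting error only. The median span of the wider list was 25.5 kb, against 24.1 kb for all protein-coding genes. Genes with HDGF in both lists numbered 30 (31.5% of all genes), and 29 had HDGF in control alone (18.2%). HDGF was in starvation alone at 1 (9.57%), the D-type cyclin gene CCND1. Those 29 included MCM6, another subunit of the helicase ring, the kinases CDK1 and CDK2, the retinoblastoma gene RB1, and PCNA, the sliding clamp of DNA polymerases.

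By role, HDGF lay at 7 of 15 genes of origin licensing and firing in starvation against 13 in control, and at 3 of 11 genes of the E2F and RB families in starvation against 10 in control. It lay at 1 of 5 kinases in starvation against 4 in control, and at 4 of 6 cyclins in each list. These cyclins were not all the same, as CCND1 had HDGF in starvation alone and CCNA2 in control alone. Over all genes the shares with HDGF were 41.1% in starvation and 49.7% in control. The strongest HDGF peaks of the list in starvation were at CDC45, a subunit of the active replicative helicase, at CDT1, which loads MCM at origins, and at POLD1, the catalytic subunit of DNA polymerase delta, with folds of 3.97, 3.79 and 3.61. PKMYT1 and AURKB tied with POLD1. In control they were at CDKN2B, which encodes the CDK4 inhibitor p15, at RRM2, a subunit of ribonucleotide reductase, and at CDKN2A, which encodes p16, with folds of 4.16, 4.03 and 4.03, and CDC45 tied with RRM2 and CDKN2A. CDKN2A held 5 HDGF peaks in starvation against 16 in control, and CDC45 held 22 against 28.

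INTS13 in HDGF depletion was found at 31 of the 72 genes where control had none (38.7% of all genes). It was at 4 in both lists (12.5%), namely MCM9, ORC1, CDC45 and CHEK2, and at 0 in control alone (0.704%). Its strongest depletion peaks were at the checkpoint kinase gene CHEK2 and at CDKN2B, both of fold 4.43, and at MCM9, of fold 4.04, with which CDC45, GINS2 and CDK4 tied. In starvation, INTS13 was at 5 genes without a control peak (CDKN2B, E2F3, E2F7, POLD1 and POLE), at 2 with one (MCM9 and CDC45), and absent at 2 that had one in control (ORC1 and CHEK2). The shares of all genes were 4.73%, 6.92% and 6.29% in the same order. Of the 7 genes with INTS13 in starvation, 3 had the summit within 500 bp of a start, against 0 of 4 in control. In HDGF depletion 7 of 35 did (GMNN, CDK2, CDK4, PLK1, AURKB, CHEK2 and E2F3). These 7 of the 72 genes stand beside 9.1% of all genes with a listed start. CDK2 had no listed start, and its summit was near an end of the gene. E2F3, an activator of the E2F family, had a summit 282 bp upstream of a start with a fold of 5.09 and a −log10 q of 13.2. CDKN2B had one 63 bp downstream with a fold of 3.88, and E2F7, a repressor of the family, had one 229 bp upstream with a fold of 2.61. INTS13 was also at E2F3 in HDGF depletion, with its top summit 220 bp upstream of the start. The 3 genes of the 72 with INTS13 near a start in starvation and not in control stand beside 3.98% of all genes with a listed start, so this count is near the background.

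The rule that defined the windows left a few peaks close to its edge. Just inside 2.5 kb, by summit, were HDGF control peaks 2014 bp outside CCND3 and 2032 bp outside MCM3, and an INTS13 peak of HDGF depletion 2041 bp outside CDC25A. Just outside were an HDGF control peak 2658 bp from CDC25C, of fold 3.25, an INTS13 depletion peak 2728 bp from CDC25A, of fold 2.89, and an HDGF control peak 2742 bp from E2F1, of fold 3.25. All of these genes had other peaks of the same list inside the window, so none entered or left a list by them.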

How the data were processed

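HDGF and INTS13 ChIP-seq was measured in 16 HEK293T samples in 8 groups. The submitters' processing notes name MACS2, Bowtie, Picard, Trimmomatic and FastQC, without their roles, and hg38 as build. Not given in the sources used here are versions, settings, and how replicates and the 6 inputs (not analysed here) were combined. The deposited peak names carry 0.05. The deposited files give for each peak the authors' score (not used), fold, −log10 p-value and −log10 q-value. Read totals were not used, and the background in reads was recovered from each fold and its p-value.

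Peaks sharing a base with the gene body or 2.5 kb on either side were counted with Python 3.11.15, pandas 2.3.3 and numpy 2.4.6, tested on simulated data. Peaks on other sequences were left out. Overlap needed 1 shared base. Starts came from RefSeq promoter rows, which matched 15842 of 20037 genes and 9 of the 10. For the wider list, the genes named are the 3 with the highest −log10 q per list and those with peaks in all lists; others near a start, tied or counted in a comparison were named after their values were seen. The members and lists were chosen with earlier results of these data known. Intervals are exact (Clopper-Pearson, scipy 1.17.1). The alternatives were other windows, starts only, summits only, stricter −log10 q and lists of equal length.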

Additional observations from a re-analysis of the deposited data

How the results depend on the processing

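Of the counts of genes with a peak, per list and in both lists of a comparison, 58 values under the alternatives stayed within 1.5 times and 9 did not. Counting only peaks within 1 kb of a start left HDGF at 4 genes in starvation, and INTS13 at 4 in HDGF depletion and 2 in control. It left 4 genes with HDGF in both starvation and control. For INTS13 it left 2 in both HDGF depletion and control, 2 in both starvation and control, and 2 shared by INTS13 and HDGF in control. That last count was also 2 with −log10 q of at least 3 and 2 with lists of equal length. The 7 counts near starts use fewer peaks by construction. For INTS13 in HDGF depletion alone the count was 2 with lists of equal length, against 5, and INTS13 in starvation alone was 2, with CDC25A added, under −log10 q of at least 3 or equal lengths. Of the counts for 1 list alone and near starts, 57 stayed and 17 did not. HDGF in starvation alone was 2 (CCNE1 and CDC25C) with −log10 q of at least 3, against 0. HDGF in control alone was 4 near starts and 2 at that −log10 q, against 1. INTS13 in control alone, set beside starvation, was 1 (CCND3) in gene bodies only, against 0. With a start distance of 1000 bp, chosen after seeing the data, HDGF summits near starts numbered 6 in starvation and 8 in control. The cause of the other changes was not tested. No paired analysis was possible because each group has a single deposited list. Depth differed between lists, and weak peaks near the threshold limit every count.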
